A study of Mus musculus with 2 samples.

Results

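The genes described here are 10 components of the bone morphogenetic protein (BMP) pathway, taken by symbol from a table of transcripts of embryonic mouse distal forelimbs. They are the ligands Bmp2, Bmp4, Bmp7 and Gdf5, the antagonist Nog, the type I receptor gene Bmpr1b, and 4 genes that are themselves induced by the signal, Smad6, Id1, Id2 and Id3. All 10 were found, as 20 of the 64053 listed transcripts and 10 of 23157 genes. RNA came from E12.5 distal forelimbs of C57Bl6CBAF1 embryos, with 1 library from wild-type embryos and 1 from embryos carrying the HoxD Inv(TpSB1-Itga6) allele. The allele inverts 2.4 Mb of chromosome 2 on the centromeric side of the HoxD cluster, and the methods state that mutant tissue was dissected from homozygous embryos. Each library is a single pool, described in the labels as 3 pairs of forelimbs, so that no difference below has a replicate check and no test of the genotypes was possible.

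BMP ligands are secreted dimers that bring type I and type II receptors together. The activated type I receptor phosphorylates SMAD1, SMAD5 and SMAD9, which enter the nucleus with SMAD4 and induce target genes, among them the Id genes and the inhibitory Smad6. In the digital plate, Bmp2, Bmp4 and Bmp7 are known for their expression in interdigital mesenchyme and in the apical ridge, where the signal restrains ridge maintenance and precedes interdigital cell death. Gdf5 marks the future joints, while Bmpr1b and the secreted antagonist NOGGIN act in and around the cartilage condensations.

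The wild-type library held 9280660 reads and the inversion library 9466154, recovered from values that the authors had divided by 1 size factor per library. The values given below are these normalised reads, summed over the transcripts of a gene. The log2 ratio is that of inversion over wild type with a pseudocount of 1, so that changes of weakly expressed genes are understated. Each 95% interval is an exact Clopper-Pearson interval of the inversion library's share of the reads of a gene. It covers counting error only and compares the 2 libraries, not the genotypes. Genes with a mean of at least 10 normalised reads were considered, which left 16756 genes, and each of the 10 BMP genes passed this filter with a mean above 100. As to the labelled tissue, Hoxd13 (2292 and 1503 normalised reads in wild type and inversion), Hoxa13 (1098 and 1193) and the forelimb gene Tbx5 (1684 and 1935) were all well represented. The summed reads of 4 Y-linked genes were higher by 3.33-fold in the inversion library, so that the sex of the pooled embryos cannot be told apart from the genotype.

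Of the BMP genes, 5 of 10 had fewer reads in the inversion library by more than counting error. These were 3 ligands (Bmp2, Bmp7 and Gdf5), Nog and Bmpr1b, with 76.4% to 81.3% of the wild-type level. The remaining 5, namely Bmp4 and the 4 target genes Smad6, Id1, Id2 and Id3, lay between 93.4% and 97.9% of the wild-type level, and each of their intervals included 0. The point value of all 10 genes was below 0, as was that of 53.4% of all genes that passed the filter and of 57.6% of those with a mean of at least 100. The median log2 ratio was -0.20 for the 10 genes and -0.02 for all genes that passed the filter.

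**Figure D1:**
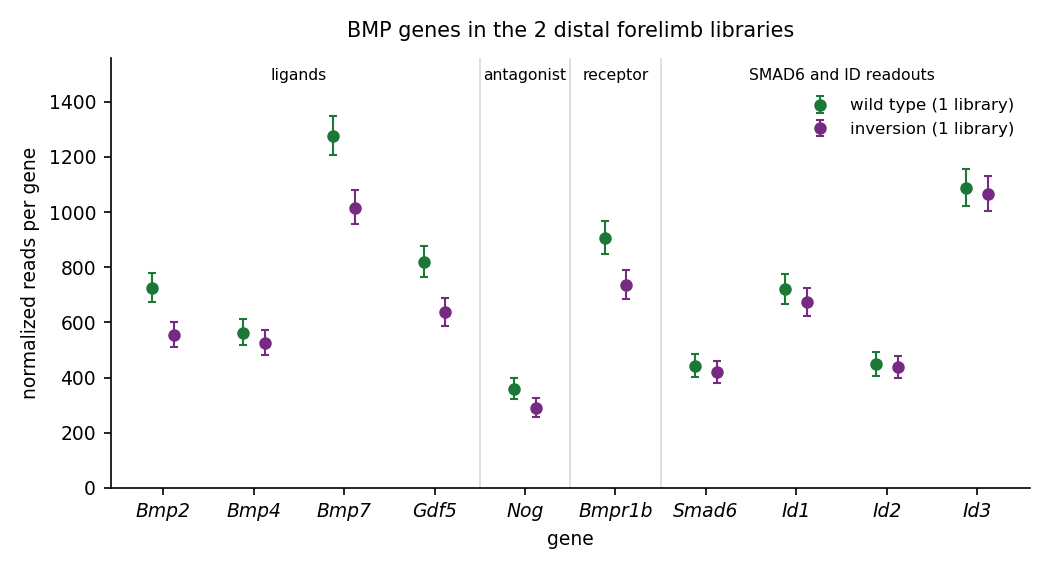
Normalised reads per gene (y axis) for each of the 10 BMP genes (x axis) in the wild-type (green) and inversion (purple) library, with 1 library per genotype. Bars are exact 95% Poisson intervals of the reads and cover counting error only. Bmp2, Bmp7 and Gdf5 show the widest gaps, with 725 against 554, 1275 against 1016 and 819 against 636, whereas the pairs of points of Id2 (448 and 437) and Id3 (1088 and 1065) nearly coincide.

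Set against all genes, a share of 13.0% had an interval below 0 and 16.7% had one above 0. Among the 11831 genes whose mean reached 100, as it did for each BMP gene, these shares were 17.0% and 16.9%. Of the 10 BMP genes, 5 had an interval below 0 and 0 had one above. None was changed 2-fold, where 0.483% of all genes were at least 2-fold lower and 3.99% at least 2-fold higher. A binomial test (exact, two-sided) of the reads was added once the data had been seen, and again compares libraries. It called 12.1% of all genes higher (2032) and 7.72% lower (1293) at a Benjamini-Hochberg adjusted p-value of 0.05. An interval leaves out 0 wherever the unadjusted test falls under 0.05, since both rest on the same reads and the same binomial error. The 5 BMP genes with an interval below 0 stayed called after the adjustment, with Nog closest to the limit. The other 5 were not called. These calls are therefore no separate support for the intervals.

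**Figure D2:**
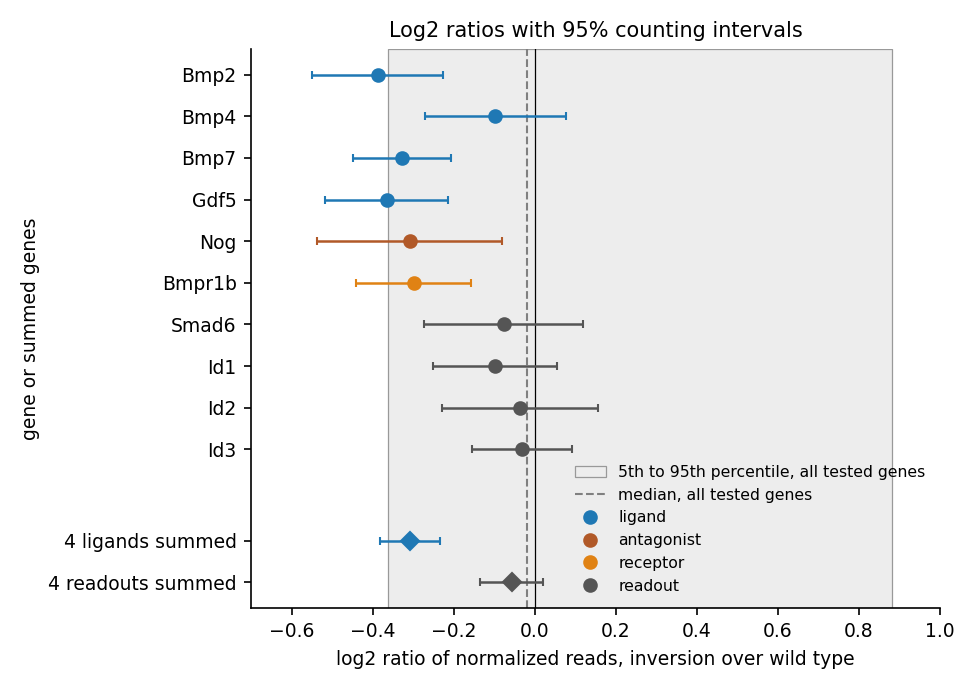
Log2 ratio of inversion over wild type (x axis) of each gene, and of the summed reads of the 4 ligands and of the 4 readouts (y axis), with exact 95% counting intervals. The grey band spans the 5th to the 95th percentile of all genes that passed the filter (-0.36 to 0.88) and the dashed line is their median (-0.02). Bmp2, Bmp7, Gdf5, Nog and Bmpr1b lie to the left of 0 with their whole interval, and Bmp4 and the readouts do not.

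Among the ligands, Bmp2 (chromosome 2, 133552159 to 133562885 on GRCm38, plus strand) had 725 normalised reads in the wild-type and 554 in the inversion library. Its log2 ratio of -0.39 (95% interval -0.55 to -0.23) was the lowest of the 10 genes. A ratio lower than this was found for 1.81% of the genes whose mean reached 100. Gdf5 (chromosome 2, 155941023 to 155945367, minus strand), the joint ligand, followed with 819 and 636 normalised reads and a log2 ratio of -0.36 (95% interval -0.52 to -0.21). Bmp7 (chromosome 2, 172868012 to 172940321, minus strand), the ligand with the most reads, went from 1275 to 1016 normalised reads (log2 ratio -0.33, 95% interval -0.45 to -0.21). These 3 ligands thus kept 76.4% to 79.7% of their wild-type level, and their intervals overlap widely. Bmp4 (chromosome 14, 46383520 to 46390669, minus strand) had 562 and 525 normalised reads, a log2 ratio of -0.10 whose interval of -0.27 to 0.08 includes 0. The difference between closely related ligands was then taken directly from their reads, for pairs chosen with the values known and without a test. The ratio of Bmp2 was below that of Bmp4 by a log2 difference of -0.29 (95% interval -0.53 to -0.05), and that of Bmp7 below Bmp4 by -0.23 (95% interval -0.44 to -0.02). Between Bmp2 and Bmp7 the difference was -0.06, with an interval from -0.26 to 0.14.

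Gdf6, a close relative of Gdf5 that is also made in joints, had 453 normalised reads in the wild-type and 460 in the inversion library. The log2 difference between Gdf5 and Gdf6 was -0.39 (95% interval -0.63 to -0.14). Of the 15 other BMP and GDF ligands listed, 10 passed the filter, with 1 interval above and 1 below 0 and a median log2 ratio of 0.07, which was just below 0 with 2 of the other processing choices. Bmp5 went up from 107 to 209 normalised reads, a log2 ratio of 0.96 (95% interval 0.62 to 1.31). Gdf10 went down from 1003 to 692 (log2 ratio -0.53, 95% interval -0.68 to -0.39). Gdf11, the ligand of this list with the most reads, had 1112 and 1092 normalised reads.

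Nog (chromosome 11, 89300638 to 89302332, minus strand) encodes NOGGIN, which binds BMP ligands and keeps them from their receptors. It had 358 normalised reads in the wild-type and 289 in the inversion library, for a log2 ratio of -0.31 (95% interval -0.54 to -0.08). With 354 and 293 reads it is the least deeply counted of the 10 genes. The antagonist Grem1 had a log2 ratio of 0.16, and the log2 difference between Nog and Grem1 was -0.47 (95% interval -0.84 to -0.09), again a pair chosen with the values known. The 18 other extracellular antagonists and modulators had a median log2 ratio of 0.08 over the 17 that passed the filter, with 6 intervals above 0 and 3 below. Chordin-like 1 (Chrdl1) had 602 and 1023 normalised reads (log2 ratio 0.76, 95% interval 0.62 to 0.91), and Chrd, which encodes the ligand trap chordin, had 96.2 and 184 (log2 ratio 0.93, 95% interval 0.57 to 1.31). Fstl3 was higher as well, but from 14 and 41 reads only. Sost was lower, with 94.2 and 52.3 normalised reads and a log2 ratio of -0.84 (95% interval -1.36 to -0.35). The most abundant genes of this list, Fstl1 (5252 and 5360) and the procollagen protease and chordin-cleaving enzyme gene Bmp1 (1909 and 2381), had log2 ratios of 0.03 and 0.32.

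Bmpr1b (chromosome 3, 141837136 to 142169425, minus strand) encodes the type I receptor of prechondrogenic condensations. It had 905 normalised reads in the wild-type and 736 in the inversion library, for a log2 ratio of -0.30 (95% interval -0.44 to -0.16). Its reads were assigned mainly to a pair of coding transcripts with separate start sites, and the sequence before both starts is shown because both transcripts had lower values. The transcript of the upstream start had 565 reads and 472 in the mutant (log2 ratio -0.29, 95% interval -0.47 to -0.12), and that of the downstream start had 316 and 273 (log2 ratio -0.25, 95% interval -0.49 to -0.01). The upstream start accounted for 63.2% of the reads of the gene in wild type (exact 95% binomial interval 59.9 to 66.4) and for 63.4% in the inversion (59.8 to 66.8), so that no shift between the starts was detectable at this depth. The 250 bases before each RefSeq start (GRCm38.p6, minus strand, chr3:141982265-141982514 for the upstream and chr3:141931589-141931838 for the downstream start, which lies near the GENCODE start of its transcript) are given 5′ to 3′, with matches to CAGAC, the core of the SMAD-binding element, in capitals:
Bmpr1b upstream start: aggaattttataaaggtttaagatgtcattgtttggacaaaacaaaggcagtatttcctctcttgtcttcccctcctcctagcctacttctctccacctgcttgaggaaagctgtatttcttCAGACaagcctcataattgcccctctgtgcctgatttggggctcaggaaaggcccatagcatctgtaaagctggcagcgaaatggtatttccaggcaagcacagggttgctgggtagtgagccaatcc
Bmpr1b downstream start: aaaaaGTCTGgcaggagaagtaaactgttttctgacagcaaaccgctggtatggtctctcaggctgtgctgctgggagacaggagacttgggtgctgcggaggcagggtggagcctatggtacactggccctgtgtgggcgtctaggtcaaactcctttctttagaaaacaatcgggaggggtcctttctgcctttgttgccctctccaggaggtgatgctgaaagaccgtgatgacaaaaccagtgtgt
Each window holds 1 match, 128 bases before the upstream start and 245 before the downstream start, the latter on the opposite strand as GTCTG. Such matches describe letters only, since 42.2% of the 32851 promoter windows of this length hold CAGAC on either strand. A further RefSeq start of Bmpr1b had no match to this motif or to the GC-rich motif described with Id2.

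Another Bmpr1b transcript, annotated as subject to nonsense-mediated decay, went from 13 reads to 0, and the 95% interval of its log2 ratio has an upper limit of -1.64. Bmpr1a, the type I receptor gene with broader expression, had 2361 and 2150 normalised reads (log2 ratio -0.14, 95% interval -0.22 to -0.05). The log2 difference between Bmpr1b and Bmpr1a was -0.16, and its 95% interval of -0.33 to 0.00 reached 0. All 11 other receptor and co-receptor genes passed the filter, with 2 intervals above 0, 2 below and a median log2 ratio of 0.07, which was just below 0 when 1 transcript stood for each gene. Hfe2, a co-receptor gene known from muscle and liver, was the only one of them that differed at least 1.5-fold beyond its interval (23.3 and 69.1 normalised reads, log2 ratio 1.53, 95% interval 0.87 to 2.32). The activin receptor gene Acvr2a had 1203 and 1200 normalised reads.

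The 4 readouts Id1, Id2, Id3 and Smad6 had intervals that include 0. Id1 (chromosome 2, 152736251 to 152737410, plus strand), Id2 (chromosome 12, 25093799 to 25097140, minus strand) and Id3 (chromosome 4, 136143497 to 136145755, plus strand) encode helix-loop-helix proteins that bind E proteins and hold back differentiation, and are direct targets of SMAD1 and SMAD5. Id1 had 720 and 673 normalised reads in wild type and inversion, a log2 ratio of -0.10 (95% interval -0.25 to 0.06). Id2 had 442 reads in each library, which scaling turns into 448 and 437 normalised reads (log2 ratio -0.04, 95% interval -0.23 to 0.16). The values of Id3 were 1088 and 1065 (log2 ratio -0.03, 95% interval -0.15 to 0.09). Smad6 (chromosome 9, 63953076 to 64022059, minus strand), whose product blocks the receptors in a feedback loop, had 441 and 419 normalised reads (log2 ratio -0.08, 95% interval -0.27 to 0.12). At this depth a difference was not detectable for any of these 4 genes. The reads of Id1, Id2 and Id3 together reached 96.4% of wild type, a log2 ratio of -0.05 with a 95% interval of -0.14 to 0.03.

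Sequence before the starts of Id2 and Smad6 is shown, as these are the readouts whose RefSeq window holds bases outside GENCODE exons. The window of Id3 lies within exons and is not printed. For Id2 (GRCm38.p6, minus strand, chr12:25096254-25096342) it is limited to the 89 bases of the window outside GENCODE exons, which lie in an intron of a longer Id2 transcript, and for Smad6 (minus strand, chr9:64022060-64022309) it is the 250 bases before the start. Capitals mark GGCGCC, the GC-rich element bound by SMAD1 and SMAD5, and CAGAC, each searched on both strands, and no matches overlapped:
Id2: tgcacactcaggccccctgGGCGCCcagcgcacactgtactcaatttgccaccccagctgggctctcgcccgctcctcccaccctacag
Smad6: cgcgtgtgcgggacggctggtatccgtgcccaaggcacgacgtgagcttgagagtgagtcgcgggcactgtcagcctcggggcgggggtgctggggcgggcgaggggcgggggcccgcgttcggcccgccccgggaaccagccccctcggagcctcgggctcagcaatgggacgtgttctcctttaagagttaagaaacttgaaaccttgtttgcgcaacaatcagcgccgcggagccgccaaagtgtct
The Id2 window has 1 GGCGCC, 231 bases before the start, a sequence that 9.59% of all promoter windows of 250 bases contain. The Smad6 window has 0 matches to either motif, which says only that these letters are not within it. Among the remaining members, promoter entries were found for Bmp4, which has 0 matches, and for Id3, which has 2 matches to CAGAC and none to GGCGCC. Bmp2, Bmp7, Gdf5, Nog and Id1 had no entry.

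To compare the ligands with the readouts, reads were summed by role. The 4 ligands together had 3381 normalised reads in the wild-type and 2732 in the inversion library, or 80.8% (log2 ratio -0.31, 95% interval -0.38 to -0.23). The 4 readouts together had 2696 and 2592, or 96.1% (log2 ratio -0.06, 95% interval -0.14 to 0.02). The intervals of the sums do not overlap, and the log2 difference between them was -0.25 (95% interval -0.36 to -0.14). This is a description of these libraries from grouped reads, and the ligand sum is weighted towards Bmp7. These intervals treat the pooled reads as 1 count and leave out the spread between genes. The split is not one of all ligands against all readouts. Bmp4, at 93.5% of wild type, lay among the readouts, from 93.4% (Id1) to 97.9% (Id3).

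Of the intracellular transducers, none differed at least 1.5-fold. The list of 13 other SMADs and their regulators had log2 ratios from -0.17 to 0.06 with a median of -0.08, 0 intervals above 0 and 3 below. Smad5, with 2882 and 2968 normalised reads, and Ski, which encodes a SMAD co-repressor, with 2416 and 2272, were the most abundant of them. Further target genes went in both directions, with 4 intervals above 0 and 4 below among 12 genes and a median log2 ratio of -0.08. Msx1 and Msx2, homeobox genes of the BMP-responsive digit mesenchyme, had log2 ratios of -0.22 (95% interval -0.33 to -0.11) and -0.06 (95% interval -0.20 to 0.08). Gata2 was the lowest gene of the list, from 223 to 91.8 normalised reads (log2 ratio -1.27, 95% interval -1.64 to -0.92). Runx2, the determinant of bone formation, went from 266 to 502 (log2 ratio 0.91, 95% interval 0.70 to 1.13). Over the 5 lists of other pathway genes, 63 of 69 passed the filter, with 13 intervals above 0, 13 below and a median log2 ratio of 0.00.

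**Figure D3:**
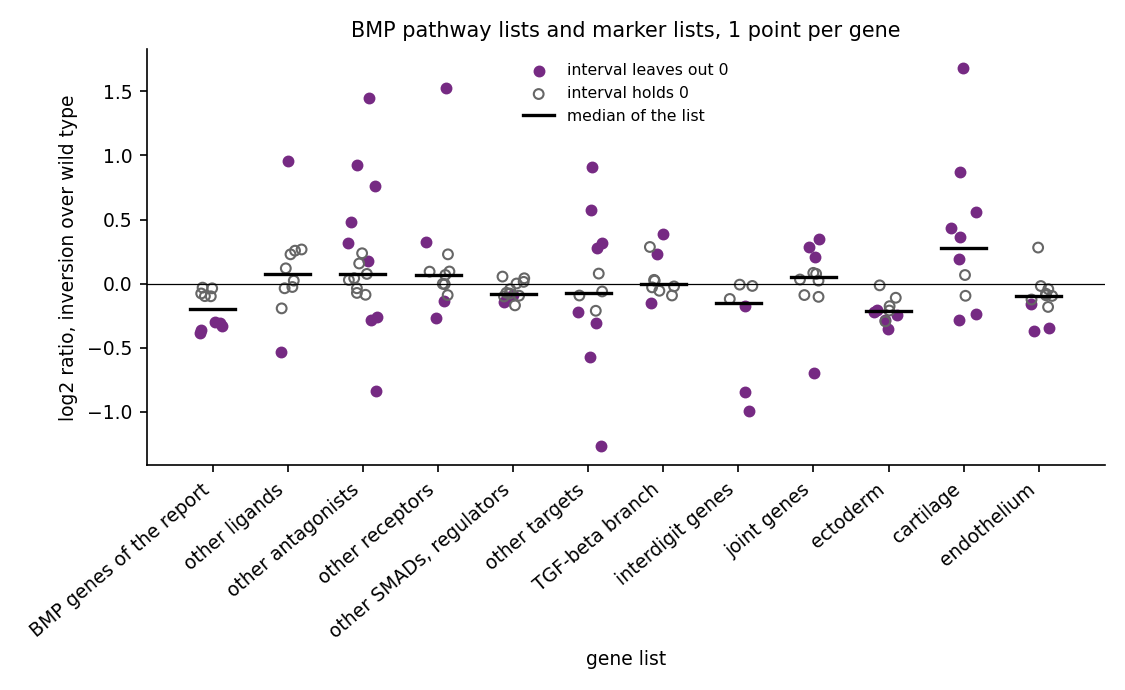
Log2 ratio of inversion over wild type (y axis) of each gene that passed the filter, by gene list (x axis). Filled points have a 95% counting interval that leaves out 0, open points do not, and black lines are medians. The SMADs and their regulators lie within -0.17 to 0.06, whereas other targets reach from -1.27 (Gata2) to 0.91 (Runx2) and the ectoderm genes are all below 0.

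Each transcript of the 5 lower genes was lower by point value. Bmp2, Nog and Id2 each had 1 transcript, so that their values do not depend on how reads were divided between isoforms. For Gdf5 the reads were divided evenly between the annotated coding transcript (402 and 328 reads, log2 ratio -0.33, 95% interval -0.54 to -0.12) and a second transcript that was not matched in GENCODE M21 (407 and 316, log2 ratio -0.40, 95% interval -0.62 to -0.19). The coding transcript of Bmp7 carried 92.3% of the Bmp7 reads in wild type, and 91.8% in the mutant. The retained-intron transcript Id3-203 made up 39.4% of the Id3 reads in wild type (exact 95% interval 36.4 to 42.4) and 40.9% in the inversion (38.0 to 43.9), a large share that did not differ beyond counting error. The transcripts with the higher point value in the inversion were Bmp4-203, with 24 and 31 reads, Smad6-202, with 39 and 41, and Id3-203, with 423 and 441. All 3 intervals include 0. How reads that fit several transcripts were counted is not given in the sources used here, and intervals of genes with several transcripts are too narrow if such reads were counted more than once.

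**Figure D4:**
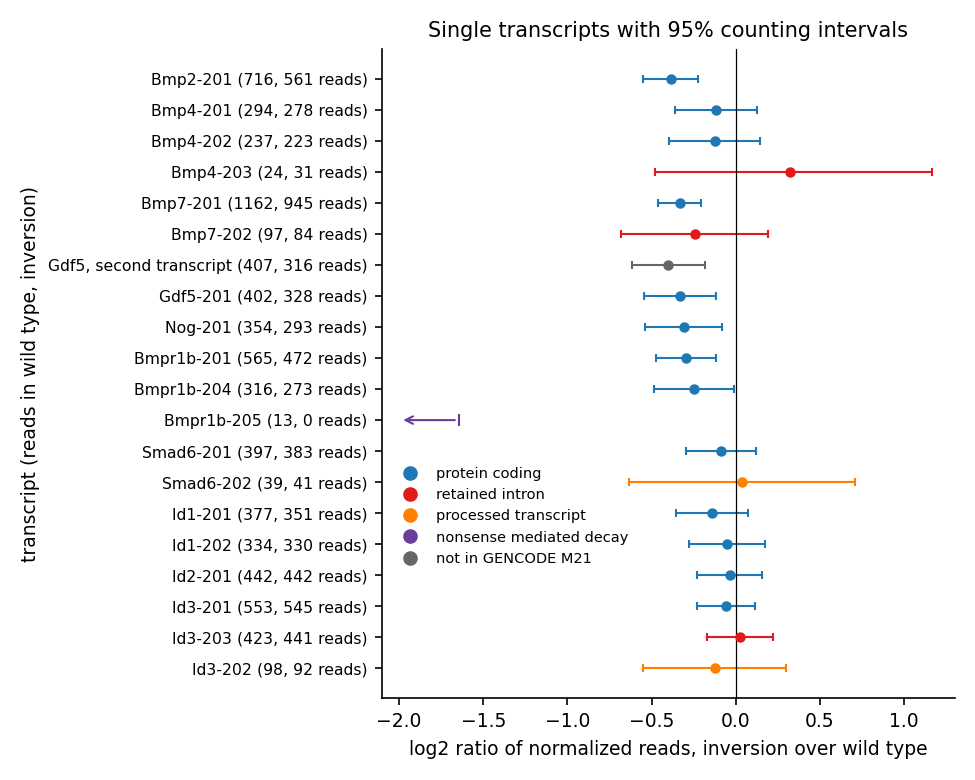
Log2 ratio of inversion over wild type (x axis) of each transcript of the 10 genes (y axis, with its reads in wild type and inversion), with exact 95% counting intervals and colours for the GENCODE transcript type. The arrow marks the decay transcript of Bmpr1b, with 13 and 0 reads, for which only an upper limit of -1.64 can be given. Both coding transcripts of Bmpr1b (-0.29 and -0.25) and both transcripts of Gdf5 (-0.33 and -0.40) are below 0.

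Levels can be compared between genes only per length, here as normalised reads per kb of the read-weighted mean transcript length. In wild type the order was Id3 (1118), Id1 (691), Bmp7 (369), Gdf5 (353), Id2 (352), Bmp4 (312), Nog (211), Bmp2 (204), Bmpr1b (185) and Smad6 (162). Id3 and Id1 stood apart from all others. The exact Poisson intervals of Bmp7, Gdf5 and Id2 overlapped, as did those of Id2 and Bmp4, and each of Nog, Bmp2, Bmpr1b and Smad6 overlapped its neighbour among these 4, all of them below Bmp4. In the inversion the order was Id3 (1094), Id1 (645), Id2 (344), Bmp7 (294), Bmp4 (291), Gdf5 (274), Nog (171), Bmp2 (156), Smad6 (153) and Bmpr1b (150). There the interval of Id2 (312 to 377) was above that of Gdf5 (253 to 296) and just met that of Bmp7 (276 to 312). The length of Gdf5 is that of its 1 matched transcript, and that of Id3 includes its short retained-intron transcript. If reads that fit several transcripts were counted more than once, levels of genes with several transcripts are too high. Their place in both orders relative to Id2, Nog and Bmp2, with 1 transcript each, could then differ.

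**Figure D5:**
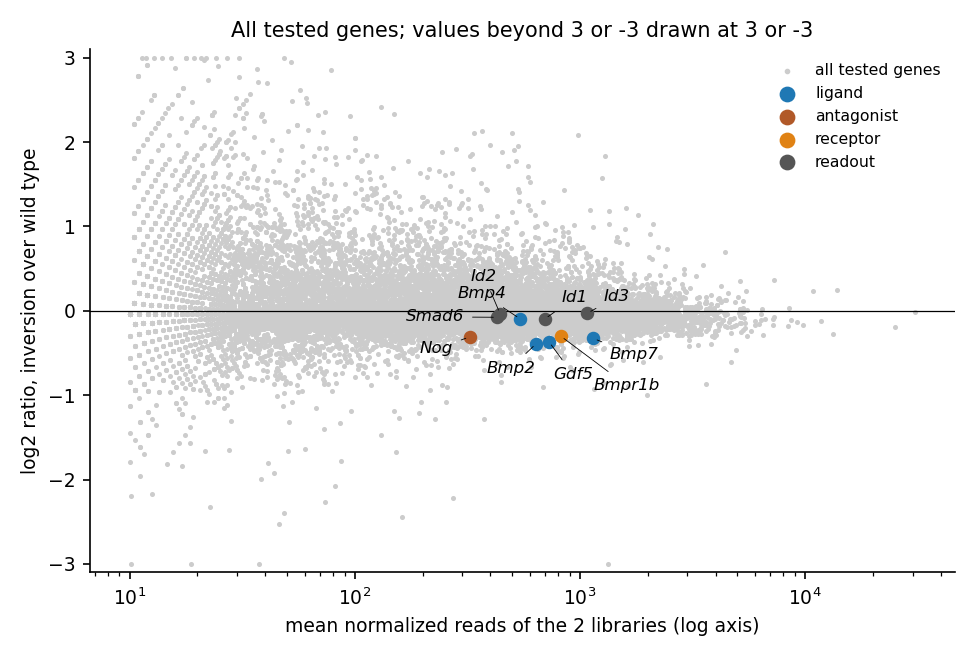
Log2 ratio of inversion over wild type (y axis) against the mean of the normalised reads (x axis, logarithmic) for the 16756 genes that passed the filter (grey), with the 10 BMP genes coloured by role and ratios beyond 3 in either direction drawn at 3. Bmp2, Gdf5, Bmp7, Nog and Bmpr1b sit in the lower part of the cloud at their read depth, from -0.39 to -0.30, and Bmp4 and the readouts near its middle.

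Bulk tissue holds several cell types, and fewer cells of a type cannot be told apart from less RNA per cell. Values of marker lists are therefore given beside the BMP genes. The 10 ectoderm and apical ridge markers (Krt5, Krt14, Trp63, Fgf8 and others) were all lower by point value, 5 of them beyond their interval. Their summed level was 5706 in wild type and 4926 in the inversion, or 86.3%. Endothelial markers, which accompany Id1, Id3 and Smad6 expression in vessels, summed to 5542 and 5137 (92.7%), with 10 of 11 lower by point value and 3 of them beyond their interval. The 10 cartilage markers went the other way and summed to 17704 and 20708 (117%), with 6 intervals above 0 and 2 below. Among them Acan (log2 ratio 0.87) and Matn1 (1.68) were highest, Hapln1 (-0.28) and Sox6 (-0.24) were lower, and Sox9 was at -0.09 with an interval that includes 0. No marker of these 3 lists was at 0 in either library. The part of these cell types in the values of the BMP genes was not tested.

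Genes tied to the interdigit, where Bmp2, Bmp4 and Bmp7 are also expressed, are given next. Aldh1a2, the retinoic acid synthesising enzyme gene of interdigital mesenchyme, had 2641 normalised reads in the wild-type and 1324 in the inversion library (log2 ratio -0.995, 95% interval -1.09 to -0.90). The retinoic acid receptor gene Rarb had 571 and 318 (log2 ratio -0.84, 95% interval -1.05 to -0.64). The cell death gene Bmf was at -0.18 (95% interval -0.28 to -0.07). The list of 6 genes had a median of -0.15, with 3 intervals below 0 and 0 above. Of the 10 joint genes, to be read beside Gdf5, 3 intervals were above 0 and 1 below, with a median of 0.05. Osr1 was lower (462 and 284 normalised reads, log2 ratio -0.70, 95% interval -0.92 to -0.48), and the most abundant genes Col3a1 and Dcx were higher (0.35 and 0.29).

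Since the inversion lies on chromosome 2, the position of the BMP genes was examined. Bmp2, Id1, Gdf5 and Bmp7 are all on this chromosome, between 59.0 Mb (Bmp2) and 98.3 Mb (Bmp7) beyond the end of Lnpk. The region from Itga6 to Lnpk was taken here to hold the inverted segment. On chromosome 2, 1235 genes outside this region passed the filter and had a position. Their median log2 ratio was -0.03, with 12.1% of intervals below 0 and 16.6% above. The filter here was a mean of at least 10, whereas each BMP gene had a mean above 100. The part of chromosomal position in the values of the BMP genes was not tested. Genes that overlap a member on the other strand had few reads, namely Gm15557 at Gdf5 (18 and 17 reads) and Gm15217 (11 and 10) and Gm15222 (6 and 11) at Bmp4.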

How the data were processed

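Strand-specific, poly(A)-selected libraries (TruSeq, 100-bp single-end reads) were mapped by the authors to NCBIM37, with Bowtie2 named in the submitters' processing notes, and reads were assigned to transcripts with the HTSstation pipeline. The deposited signal of a transcript is its number of reads after division by the size factor of each library, with 0.5 for transcripts without reads, read here as 0. The paper's methods name RPKM, but no length scaling was seen. The column for wild type was matched to the sample labelled wtFL, the only wild-type sample. Whole reads were recovered from 100% of the remaining values, within 0.1 of a read. The authors' 4 comparison columns (fold change, its log2, p-value and adjusted p-value) were not used.

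Transcripts were summed by symbol and chromosome. A pseudocount of 1 was added before log2 ratios were taken, and genes below a mean of 10 were left out. The members and all gene lists were chosen with earlier results of these data known. The lists cover other ligands, antagonists, receptors, SMADs, targets, the TGF-beta branch, interdigit and joint genes, and markers of distal and proximal limb, limb identity, cartilage, ectoderm, endothelium, muscle, macrophages, red cells, neural crest and the Y chromosome. Named were all members and, from the pathway, interdigit and joint lists, genes at least 1.5-fold changed beyond their interval and the 2 most abundant. Of the other marker lists, only some such genes were named. Other genes (Gdf6, Grem1, Hoxa13, Sox6, Sox9, Hapln1 and the overlapping genes) were chosen after their values were seen. Hoxd11, Krt14 and Fgf8 also fall outside these rules. Alternatives were other scalings (total, upper quartile), pseudocounts (5, 0.1), filters (none, 100), the highest transcript, protein-coding transcripts, and 1.5-fold and 4-fold thresholds, plus the binomial test added later. Positions and lengths come from GENCODE M21 on GRCm38, matched by transcript identifier for 88.1% of transcripts, and promoters from RefSeq (GRCm38.p6, 250 bases before to 50 after a start), found for 5 of 10 members. No coordinate was converted. The steps were tested on simulated Poisson counts with unchanged genes and 4-fold changes. That simulation held no variation between pools, no reads counted more than once and no changes as small as those of the BMP genes. Computation was in Python 3.11.15 (scipy 1.17.1, numpy 2.4.6, pandas 2.3.3) and figures in matplotlib 3.10.9.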

Additional observations from a re-analysis of the deposited data

How the results depend on the processing

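No paired analysis was possible because each genotype has 1 library. With 1 pool each, replicate error, litter, dissection and embryo sex cannot be separated from genotype. The 80 values of single BMP genes under an alternative all kept their sign and stayed within the counting interval of the reported value. The 2 filter settings could not move these values, since each gene had a mean above 100. Nor could the 2 transcript settings move Bmp2, Nog or Id2, with 1 transcript each. A scaling shifts all genes by nearly the same amount, so that the 80 values are not 80 separate checks. Neither filters nor pseudocounts enter the intervals, so these settings say nothing about stability of the interval counts. Ranges were -0.40 to -0.38 for Bmp2, -0.34 to -0.32 for Bmp7, -0.37 to -0.33 for Gdf5, -0.32 to -0.30 for Nog and -0.31 to -0.28 for Bmpr1b. The median of the 10 genes ranged from -0.22 with the highest transcript to -0.19 with total scaling. Under each alternative run, 5 intervals were below 0 and 0 above. The binomial test gave the same count, but it rests on the same reads and error as the intervals. Of the members, 0 passed a 1.5-fold, 2-fold or 4-fold threshold. At 2-fold, 0.483% of all genes were lower and 3.99% higher, so that few calls would be seen in any small set. Shares over all genes at the other thresholds were not counted.

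Medians of lists near 0 changed sign. The other ligands were at -0.00082 under the filter of 100 and with protein-coding transcripts only, and at 0.17 without the filter, against 0.07. The other receptors were at -0.00069 with the highest transcript, against 0.07. The TGF-beta branch was at -0.0082 with upper quartile scaling, -0.021 with a mean of at least 100, and -0.0012 with the highest transcript and with protein-coding transcripts only, against 0.0012. Filters change which genes are counted, and for the other settings the cause was not tested. Depth limits Nog most among the BMP genes, and the decay transcript of Bmpr1b, with 13 reads, is thinly covered.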

Other observations

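The sister branch of the pathway, that of TGF-beta, had a median log2 ratio of 0.00 over 10 genes, with 2 intervals above 0 and 1 below. The receptor gene Tgfbr2 went from 5024 to 5906 normalised reads (log2 ratio 0.23, 95% interval 0.18 to 0.29), while Tgfbr1 had 2271 and 2227.

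Markers of further cell types and regions differed between the libraries in both directions. Muscle markers were higher (7 of 8 by point value, summed level 519 and 884, 170%), and red cell markers were lower (8 of 8, summed level 30506 and 26272, 86.1%). Macrophage markers summed to 1284 and 1283, and those of neural crest and Schwann cells to 1040 and 1114. The distal limb markers summed to 10717 and 9070 (84.6%), with 3 intervals above 0 and 4 below. The lower sum rests on Hoxd11, Hoxd12 and Hoxd13 (5150 and 3361, 65.3%), which belong to the HoxD cluster, outside the inverted segment. Without these 3 genes, a split chosen after seeing the data, the 5 others summed to 5567 and 5709 (103%), with 3 intervals above 0 and 1 below. Those of the proximal limb summed to 2154 and 2221 (103%), where Shox2 was higher (log2 ratio 0.91) and the 5 others lower by point value. Of the limb identity genes, the hindlimb gene Tbx4 had 435 and 389 normalised reads.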
